A study of Mus musculus with 4 samples.

Results

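The 3 Slit genes (Slit1, Slit2, Slit3) and the 4 Robo genes (Robo1, Robo2, Robo3, Robo4) were followed across neuron subtypes, astrocytes and vessels of the mouse brain. All 7 had a row among the 32285 genes of the count matrices. They were chosen by gene symbol, with their levels over the cell classes of these libraries already known, so these levels are described here without a test. Only the comparison of treatments was tested.

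Nuclei were taken from whole brains. All mice were females of the 5XFAD line, in which Thy1 promoter elements drive the line's human transgenes in neurons and which serves as a model of Alzheimer's disease. Every mouse carried these transgenes, and no untreated or wild type library was analysed here. The mice were 7 to 10 weeks old and received 100 µL of engineered extracellular vesicles (EVs) by vein. These were low (PE-low) or high (PE-high) in the membrane lipid phosphatidylethanolamine. The paper describes them as rebuilt from the lipids of lean adipocyte EVs, without the nucleic acids and proteins of those EVs. Their phosphatidylethanolamine content was set by adding chosen species of that lipid. Each group had 2 libraries, and each library pooled 2 mice, so a library is the replicate and the spread between mice within a pool is not seen.

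Slit proteins are secreted, and Robo proteins are the receptors that bind them. The pathway is best known for repelling growing axons at the midline of the nervous system, and it also steers migrating interneurons and neuroblasts. Slit proteins bind heparan sulfate, and the tails of the receptors recruit srGAP, Ena/VASP and Abl proteins, which act on the actin cytoskeleton. Robo3 differs from Robo1 and Robo2 in that the mammalian form hardly binds Slit, and Robo4 is the receptor of the endothelium.

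The genes lie at 5 places in the genome (GRCm38, GENCODE M21). Slit1 spans 143.4 kb on chromosome 19, Slit2 spans 324.6 kb on chromosome 5 and Slit3 spans 587.3 kb on chromosome 11. Robo1 (chr16:72308306-73046095, plus strand) and Robo2 (chr16:73891839-74411825, minus strand) are neighbours with a gap of 846 kb. Robo4 (chr9:37401897-37415115, plus strand) and Robo3 (chr9:37415669-37433246, minus strand) lie tail to tail with only 553 bp between them, although they were highest in different cell classes. The upstream windows of this pair are shown for that reason, from 250 bases before to 50 bases after the RefSeq start on GRCm38.p6 (Robo4 chr9:37401722-37402021, plus strand; Robo3 chr9:37433126-37433425, minus strand). Capitals mark AGGAAG, a hexamer around the GGAA core that ETS factors of endothelial and blood cells recognise.
Robo4: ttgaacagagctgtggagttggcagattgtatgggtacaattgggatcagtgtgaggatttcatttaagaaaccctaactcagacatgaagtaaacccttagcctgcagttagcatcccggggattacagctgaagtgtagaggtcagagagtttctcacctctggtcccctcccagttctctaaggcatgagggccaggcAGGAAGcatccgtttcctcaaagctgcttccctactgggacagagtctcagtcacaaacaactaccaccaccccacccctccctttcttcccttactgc
Robo3: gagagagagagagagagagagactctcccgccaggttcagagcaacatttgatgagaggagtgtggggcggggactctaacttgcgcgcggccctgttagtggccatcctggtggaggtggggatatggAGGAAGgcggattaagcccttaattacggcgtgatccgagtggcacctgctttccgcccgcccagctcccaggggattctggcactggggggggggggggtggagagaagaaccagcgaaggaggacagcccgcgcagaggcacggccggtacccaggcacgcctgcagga
Each window held 1 match, counting CTTCCT on the other strand too, and so did 35.4% of 32851 promoters of this length, so the letters do not set the pair apart. GC made up 50.3% of the Robo4 window and 63.3% of the Robo3 window. Slit2 and Slit3 each carry a copy of the same microRNA on their own strand, outside their annotated exons, at chr5:48223966-48223986 in Slit2 and at chr11:35616840-35616860 in Slit3. miR-218-5p is known to repress Robo genes, and it was not measured here. Its seed (bases 2 to 8) is in capitals.
mmu-miR-218-5p: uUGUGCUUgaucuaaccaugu

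The libraries held 29472021 to 43272337 UMIs (unique molecular identifiers, 1 per captured RNA molecule), and 37509 nuclei were kept, 7599 to 10292 per library, at medians of 1240 to 2172 UMIs. Pairs of libraries shared 27 to 53 barcodes of called nuclei. Clustering without the 7 genes gave 27 named classes, 23 of them with at least 10 nuclei in every library, and 7.97% of nuclei stayed unnamed. Class names stand for nuclei that resemble that type by fixed markers. All 9 endothelial markers, all 8 fibroblast markers, all 4 eccentric striatal markers and 7 of the 8 astrocyte markers were highest in their own class. Fewer were highest in their own class for upper layer neurons (1 of 4), direct pathway neurons (2 of 6) and other excitatory neurons (1 of 4). The same held for layer 5 neurons (2 of 5) and subcortical inhibitory neurons (2 of 5). The class of other inhibitory neurons had none of its 3 markers highest in it, and the class of other striatal projection neurons none of 5. Levels are given in CPM, the gene's count divided by all UMIs of a class in a library and scaled to one depth. Droplets without a nucleus held free RNA, and a class level at or below theirs is called background here. This compares levels only and does not show that a gene is absent from a class. Free RNA was estimated at only a part of a class's UMIs, such as 13.1 to 25.5% in Rorb middle layer neurons. In those droplets the level was 151 to 227 CPM for Robo1, 179 to 217 CPM for Robo2, 56.8 to 78.8 CPM for Slit3, 36.3 to 45.9 CPM for Slit2, 15.96 to 19.34 CPM for Slit1, 4.98 to 6.19 CPM for Robo3 and 0.161 to 1.15 CPM for Robo4.

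**Figure D1:**
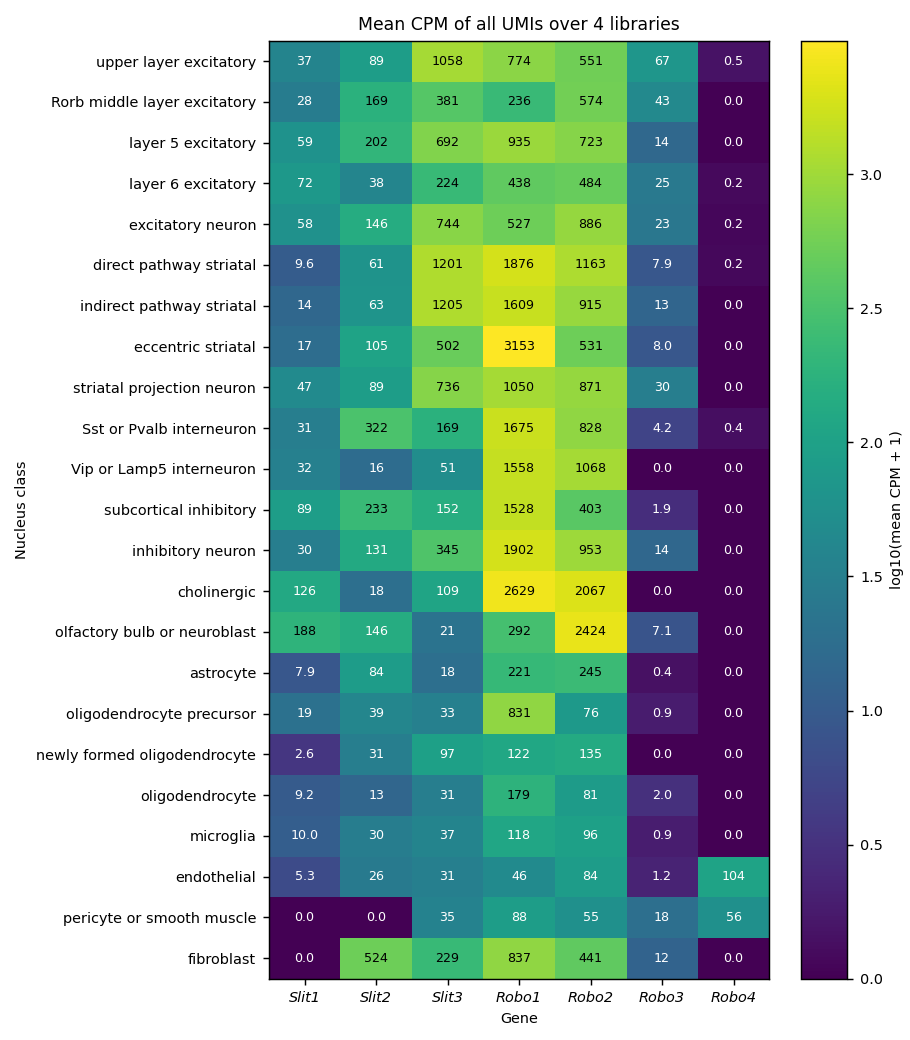
Mean CPM of all UMIs over 4 libraries for the 7 genes (columns) in 23 nucleus classes (rows), with colour on a log10 scale. Robo1, Robo2 and Slit3 fill the neuron rows, while Robo4 is above 1 CPM only in endothelial nuclei (104.5) and pericytes or smooth muscle (56.3).

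Slit3 was highest in projection neurons. In indirect pathway striatal neurons, which carry the dopamine receptor Drd2, its level was 1213 and 1345 CPM in the PE-low libraries and 1095 and 1168 CPM in the PE-high libraries (1205 ± 105, SD, n = 4). Direct pathway striatal neurons, which carry Drd1, gave 1214, 1352, 1033 and 1206 CPM in the same order (1201 ± 131), and the 2 classes overlapped. Upper layer excitatory neurons of the cortex followed at 1058 ± 105 CPM, overlapping with direct pathway neurons.
All 4 libraries of these 3 classes lay above all libraries of the next class, the other excitatory neurons, at 744 ± 105 CPM. Of the cortical layer classes, layer 5 came after the upper layers (692 ± 64.6 CPM), then Rorb middle layer neurons (381 ± 44.1 CPM) and layer 6 (224 ± 18.0 CPM). In this order by level no neighbouring pair of the 4 overlapped. It is not the order by depth, as the middle layer lies between the upper layers and layer 5. The interneurons were low. Sst or Pvalb interneurons had 169 ± 38.1 CPM and Vip or Lamp5 interneurons 51.1 ± 33.9 CPM, the latter below the background range in 3 of 4 libraries. Astrocytes held the lowest level of the 23 classes, 13.8 to 26.6 CPM, below background in every library.

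Slit2 marked other cells than Slit3. Among neurons it was highest in Sst or Pvalb interneurons, at 352, 318, 299 and 318 CPM (322 ± 22.3), followed by subcortical inhibitory neurons at 233 ± 35.6 CPM and layer 5 neurons at 202 ± 10.9 CPM. The Vip or Lamp5 interneurons, the other large interneuron class, held 9.86 to 24.9 CPM, which is below background.
The 7 parts into which Sst or Pvalb interneurons divided differed widely in Slit2. The part led by Eya4 and Btbd11 had 614 CPM of Slit2 (551 to 639 over libraries) and the part led by Kcnmb2 and Nxph2 had 405 CPM (260 to 584). The part led by Grin3a and Moxd1 had 82.0 CPM (58.2 to 115), and the part led by Egfr and Il1rapl2 had 26.9 CPM (0 to 73.6). These ranges did not overlap between the first pair and the second pair. These parts, like those named for the genes below, were picked after their values were seen.
Fibroblasts had the highest mean of all classes, 524 ± 301 CPM, but it came from only 94 nuclei and 49 UMIs, with 141 CPM in PE-low replicate 2 and 469 to 856 CPM in the other libraries. Of these UMIs, 45 lay in a part of 33 nuclei led by Bnc2 and Prg4 (1186 CPM pooled), and the other parts, with 32 and 29 nuclei, had 3 UMIs (86.6 CPM) and 1 UMI (41.9 CPM). That spread overlapped the Sst or Pvalb interneurons.

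Slit1 was scarce, with 2523 UMIs in all kept nuclei. Its highest class was olfactory bulb cells or neuroblasts, young neurons marked by Dcx and Sox11, at 195, 249, 119 and 190 CPM (188 ± 53.6). This level rested on how nuclei were assigned to the class. It was 65.2 CPM when each nucleus had to pass a marker gate and 72.6 CPM at the coarser clustering resolution of 0.4, where cholinergic neurons were highest (127 CPM). At 3% mitochondrial UMIs neuroblasts had too few nuclei to be listed, and subcortical inhibitory neurons were highest (86.9 CPM). Cholinergic neurons (126 ± 64.1 CPM from 75 nuclei), subcortical inhibitory neurons (88.8 ± 26.0 CPM) and layer 6 neurons (72.2 ± 9.70 CPM) came next, and no neighbouring pair in the whole order of 23 classes was separated.
A small group within layer 5 had a higher pooled level than any of these classes. The 154 and 106 nuclei of its 2 parts led by Tshz2 and Vwc2l held 291 CPM (253 to 359 over libraries) and 328 CPM (214 to 398) of Slit1, while the other 2 parts of layer 5 held 41.5 and 14.6 CPM. The same 2 parts were nearly free of Slit2, at 11.6 and 10.1 CPM, where the other parts of layer 5 had 246 and 178 CPM. Within layer 5 the 2 ligands were thus highest in different parts. Astrocytes (7.93 ± 2.26 CPM) and direct pathway neurons (9.56 ± 1.72 CPM) lay below background for Slit1.

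Robo1, the main Slit receptor of axons, was the most counted member (68810 UMIs). It was highest in eccentric striatal neurons, a striatal class apart from the direct and indirect pathways, at 2948, 3390, 3066 and 3209 CPM (3153 ± 191). Cholinergic neurons, which include the large striatal interneurons, had 2629 ± 450 CPM and overlapped them.
The other inhibitory neurons had 1902 ± 198 CPM, with no overlap with the cholinergic neurons, and 5 further GABAergic classes followed within 1528 to 1876 CPM. Direct pathway neurons had 1876 ± 57.8 CPM, Sst or Pvalb interneurons 1675 ± 73.3 CPM, indirect pathway neurons 1609 ± 131 CPM, Vip or Lamp5 interneurons 1558 ± 179 CPM and subcortical inhibitory neurons 1528 ± 67.0 CPM. Direct pathway neurons stood above Sst or Pvalb interneurons in all libraries, whereas the neighbours after that overlapped. The other striatal projection neurons, the class without marker support, were lower at 1050 ± 236 CPM.
Every excitatory class of the cortex was lower, and the means fell from 935 ± 159 CPM in layer 5 to 774 ± 147 CPM in upper layers, 438 ± 81.0 CPM in layer 6 and 236 ± 84.9 CPM in Rorb middle layer neurons, the last partly within the background. Oligodendrocyte precursors, the dividing glia, had 831 ± 93.0 CPM, more than microglia (118 ± 59.2 CPM), mature oligodendrocytes (179 ± 57.7 CPM) or endothelium (45.7 ± 10.3 CPM), all of which were near or below background. Fibroblasts, from only 94 nuclei, were level with the precursors, with group means of 835 CPM in PE-low and 838 CPM in PE-high. Their group means of Robo2 were 344 and 538 CPM.

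Robo1 also varied within classes. Direct pathway neurons split into a part led by Ebf1 and Ror1 with 1452 CPM (1386 to 1543 over libraries) and a part led by Htr4 and Drd3 with 2850 CPM (2651 to 3552). For Robo2 the same parts had the reverse order, 1396 CPM (1313 to 1440) and 639 CPM (614 to 752). The 2 receptors therefore divided the nuclei named direct pathway in opposite directions, with no overlap of libraries. The part led by Htr4 and Drd3 had 5 of 6 direct pathway markers raised, but Otof, an eccentric striatal marker, was also among its leading genes. Its levels lay near those of the eccentric striatal class, with group means of 3138 and 3169 CPM of Robo1 and 524 and 539 CPM of Robo2. Whether it holds eccentric striatal nuclei was not tested.
Layer 5 held a part led by L3mbtl4 with 2016 CPM of Robo1 (1740 to 2194) beside a part led by Rspo2 and Il1rapl2 with 425 CPM (261 to 506). Nos1 interneurons within the Sst or Pvalb class reached 3012 CPM (2346 to 3326), against pooled levels of 1126 to 2232 CPM in the other 6 parts.

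**Figure D2:**
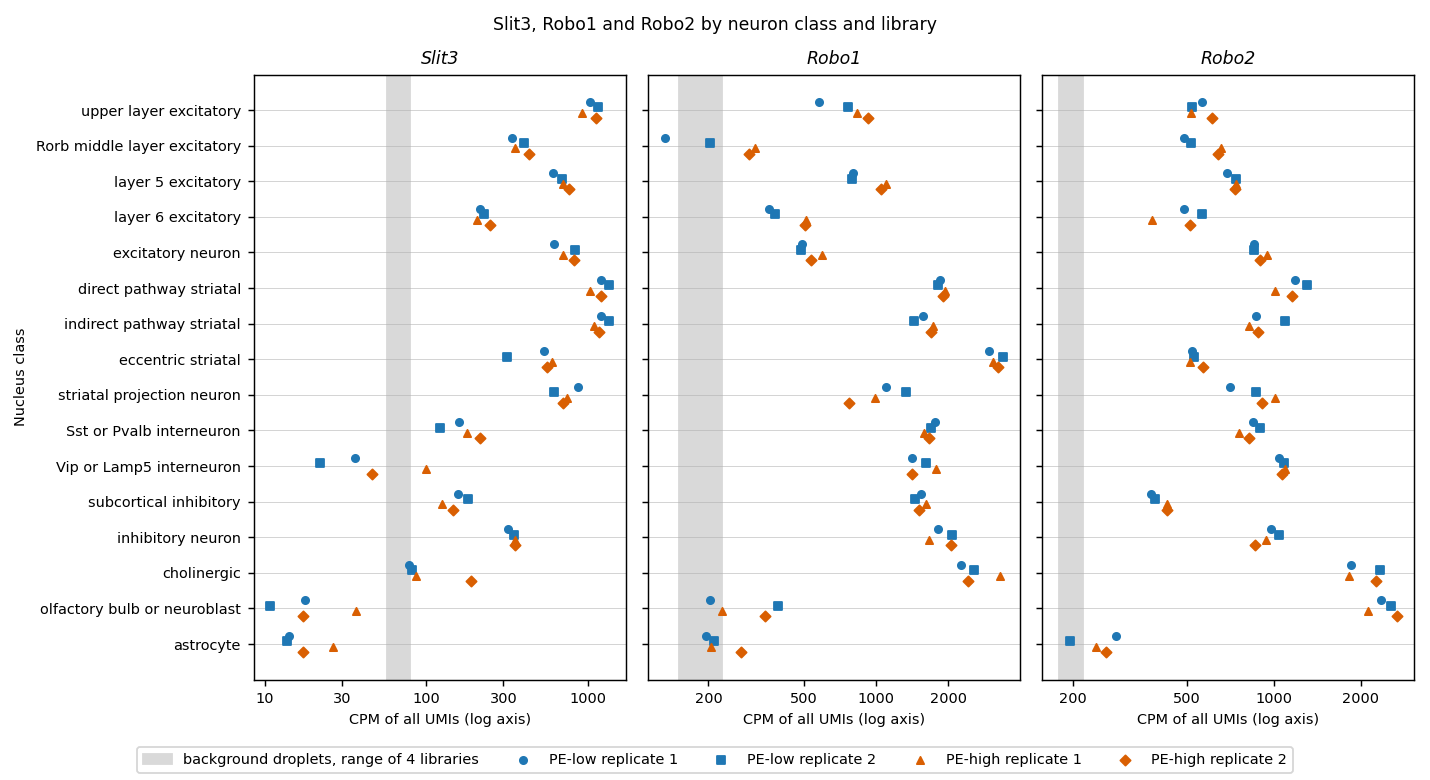
CPM of all UMIs (log axis) of Slit3, Robo1 and Robo2 in 15 neuron classes and astrocytes, with 1 point per library and the range of background droplets in grey. Robo1 is highest in eccentric striatal neurons (2948 to 3390 CPM), Robo2 in olfactory bulb cells or neuroblasts (2115 to 2687 CPM), and astrocytes sit at or below the grey band for Slit3 and Robo1 in all but 1 library.

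Robo2, the second receptor of guidance, peaked in olfactory bulb cells or neuroblasts at 2347, 2547, 2115 and 2687 CPM (2424 ± 249). Here too the class level moved with how nuclei were assigned, to 821.5 CPM with the marker gate, where direct pathway neurons were highest (1156 CPM), and to 1074 CPM at resolution 0.4, where cholinergic neurons were (2097 CPM). At 3% mitochondrial UMIs, where neuroblasts were not listed, Vip or Lamp5 interneurons were highest (1212 CPM). Robo1 was at or somewhat above its background in the neuroblasts, at 204 to 390 CPM, and Slit3 was below its background at 10.8 to 36.5 CPM. Within the class, the part led by Dlx6os1 and Igfbpl1 had 3334 CPM of Robo2 (2996 to 3931 over libraries) and the part that included the dividing cell gene Top2a had 981 CPM (596 to 1359).
Cholinergic neurons had 2067 ± 265 CPM of Robo2 and overlapped the neuroblasts. Direct pathway neurons had 1163 ± 122 CPM and overlapped the Vip or Lamp5 interneurons at 1068 ± 22.1 CPM. The eccentric striatal neurons, the class highest in Robo1, had only 531 ± 23.5 CPM. Subcortical inhibitory neurons had 403 ± 26.2 CPM, the lowest of the neurons.
Excitatory neurons outside the layer classes carried Robo2 unevenly. A part led by Ntng1 and Fyb2 had 2641 CPM (1900 to 3013 over libraries) together with 2809 CPM of Robo1 (1978 to 3542). A part led by Tfap2d and Unc13c had 1580 CPM of Robo2 (1521 to 1633) but 259 CPM of Robo1 (231 to 295). Oligodendrocyte precursors, which held Robo1, had 75.9 ± 30.1 CPM of Robo2, below background.

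Robo3, best known from commissural axons, was rare (1202 UMIs) and was highest in cortical excitatory neurons. Upper layer neurons had 76.1, 68.9, 66.6 and 57.1 CPM (67.2 ± 7.85), and all libraries lay above those of Rorb middle layer neurons (43.2 ± 7.99 CPM). Layer 6 had 25.1 ± 4.12 CPM and layer 5 14.4 ± 2.50 CPM, above the background range in every library. Outside the cortical classes, other striatal projection neurons had 29.9 ± 29.0 CPM from 9 UMIs, other inhibitory neurons 13.5 ± 7.24 CPM and indirect pathway neurons 12.7 ± 3.73 CPM, while the values of pericytes or smooth muscle cells and of fibroblasts came from 1 UMI each.
No UMI of Robo3 was found in Vip or Lamp5 interneurons, cholinergic neurons or newly formed oligodendrocytes, which allows up to 2.66, 15.3 and 12.2 CPM from a count of 0 over the 4 libraries (counting error only), and 1 UMI was found in astrocytes. A part of 250 Rorb middle layer neurons, with Mamdc2 among its leading genes, had 85.6 CPM (62.1 to 106 over libraries), overlapping the upper layer neurons.

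Robo4 was the vessel member. Endothelial nuclei had 104, 118, 72.5 and 124 CPM (104.5 ± 22.9), from 61 of its 85 UMIs in 608 nuclei. Pericytes or smooth muscle cells, which wrap the vessels, had 0, 60.1, 93.5 and 71.6 CPM from 5 UMIs in 96 nuclei. None was found in 2831 astrocytes, which allows up to 1.22 CPM from a count of 0 over the 4 libraries, nor in microglia, oligodendrocytes or fibroblasts (up to 31.1 CPM). None of the other listed classes passed 0.460 CPM. A class of 78 nuclei that mixed endothelial and mural markers, 77 of them from PE-low replicate 1, held 5 UMIs (42.8 CPM, exact Poisson 95% interval 13.9 to 99.8).
When each nucleus was thinned to 500 UMIs, 1.94 to 5.10% of endothelial nuclei had a Robo4 UMI (5.83 to 14.1% unthinned) and none of the astrocytes or microglia did. Per kb of gene span, the endothelial Robo4 level was 7.90 CPM, against 4.27 CPM for Robo1 in eccentric striatal neurons, 4.66 CPM for Robo2 in neuroblasts, 3.82 CPM for Robo3 in upper layer neurons and 2.05 CPM for Slit3 in indirect pathway neurons. Slit2 in fibroblasts (1.62 CPM per kb) and Slit1 in neuroblasts (1.31 CPM per kb) were the lowest of the 7 peaks on that scale.

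The vessels of PE-low replicate 1 stood apart from the others. Of its endothelial nuclei and those mixed with mural cells, 272 fell in a cluster with only 2 nuclei of another library, while the endothelial nuclei of the other libraries shared a second cluster. The 5 interferon response genes Cxcl10, Rsad2, Iigp1, Gbp5 and Ifit1 summed to 156 CPM in its endothelial nuclei and to 20040 to 24620 CPM in the other 3 libraries, PE-low replicate 2 included. Robo4 did not follow that split, since 104 CPM in PE-low replicate 1 lay within the 72.5 to 124 CPM of the others.
The other members were scarce in endothelium. Robo1 (45.7 ± 10.3 CPM), Robo2 (83.7 ± 24.5 CPM), Slit3 (31.4 ± 13.9 CPM) and Slit1 (5.26 ± 4.25 CPM) were below background, and Slit2 (25.7 ± 12.4 CPM) did not exceed it. Pericytes or smooth muscle cells had no UMI of Slit1 or Slit2, which allows up to 35.8 CPM, about the background of Slit2.

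Astrocytes held little of the pathway. Robo1 had 196, 211, 206 and 273 CPM and Robo2 282, 195, 241 and 262 CPM, around or slightly above the background ranges. Slit2 alone exceeded it in every library, at 63.5, 120, 81.6 and 70.9 CPM (83.9 ± 25.0).
This came from parts of the astrocytes. The largest part (2271 nuclei, led by Gpc5 and Mertk) had 56.0 CPM of Slit2 (23.1 to 103 over libraries). A part led by Itih3 and Etnppl had 185 CPM of Slit2 (150 to 338) but only 93.5 CPM of Robo2 (84.4 to 97.2), and a part led by Thbs4, Myoc and Gfap, a gene set of fibrous and surface astrocytes, had 225 CPM (95.8 to 279) from 122 nuclei. The last part also had 601 CPM of Robo2 (342 to 842), above its level in the largest part (257 CPM, 225 to 285) in every library. Free RNA was estimated at 37.8 to 49.6% of astrocyte UMIs, more than the 13.6 to 22.5% of upper layer neurons.

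**Figure D3:**
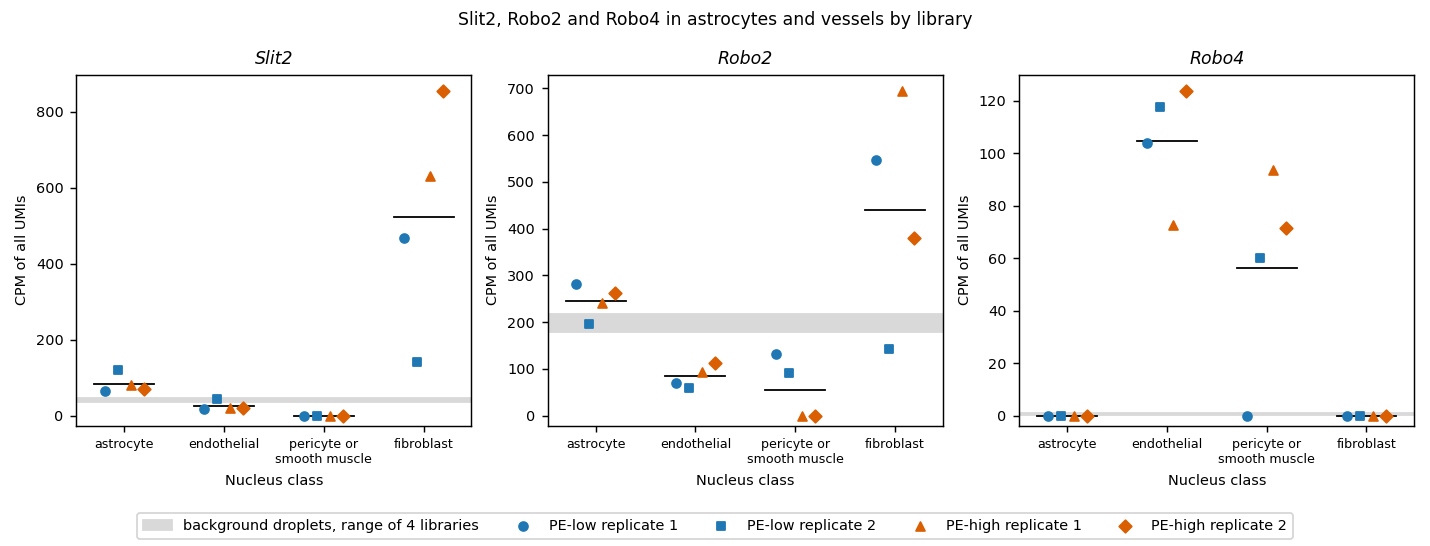
CPM of all UMIs of Slit2, Robo2 and Robo4 in astrocytes, endothelial nuclei, pericytes or smooth muscle cells and fibroblasts, with 1 point per library, a black line at the mean and the background range in grey. Robo4 is found in endothelium (72.5 to 124 CPM) and not in astrocytes, and fibroblast Slit2 runs from 141 to 856 CPM.

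At matched depth, receptors and ligands were found together most often in direct and indirect pathway nuclei. After thinning to 500 UMIs, 30.9 to 36.2% of direct pathway nuclei had a UMI of a Slit gene together with one of Robo1 or Robo2, as did 28.7 to 31.8% of indirect pathway nuclei and 15.1 to 23.0% of upper layer neurons. Unthinned, the shares were 69.6 to 90.0%, 68.4 to 87.1% and 66.8 to 87.9%, and these 3 classes overlapped. Microglia, which should lack both, had 0 to 0.873% (0 to 1.51% unthinned), and astrocytes 0.658 to 1.16% (1.51 to 3.12%). Robo1 and Robo2 together were found in 19.0 to 25.0% of direct pathway nuclei (59.1 to 85.9% unthinned), in 22.2 to 54.5% of cholinergic neurons (60.0 to 77.3%) and in 0.573 to 1.18% of astrocytes (1.51 to 3.77%). Nuclei under 500 UMIs, left out of the thinned shares, occurred only in the PE-high libraries, where 9214 of 10074 and 8843 of 9544 were kept. Doublets were not removed and can add to such shares.

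Over the 23 classes, the log2 levels of Robo1 and Robo2 had a Pearson correlation of 0.70, Slit3 and Robo3 one of 0.67, and Slit1 and Robo2 one of 0.65, the highest of the 21 pairs. The classes share libraries and differ in depth, and no p-value is given. The genes most like each member among 15087 candidates were named by the same measure. Ypel4 (0.92), A230051N06Rik (0.91) and Sh3yl1 (0.91) were most like Slit1. Plxna1, a receptor subunit for semaphorins (0.84), Mthfsd (0.83) and Pim2 (0.82) were most like Slit2, and Nin, a centrosome protein (0.90), Fcho1 (0.89) and Phactr1 (0.87) were most like Slit3. For Robo1 these were Xkr6 (0.89), 1700024B18Rik (0.88) and Radil (0.88). Robo2 was followed most closely by Aff3 (0.89), the cadherin Celsr3 (0.88) and Taf1b (0.865), and Robo3 by Ankrd33b (0.80), Gm33524 (0.79) and the spine protein Synpo (0.79). Robo4 had too few UMIs for such a list.

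Whether the EVs changed any member was tested within 5 broad classes on UMIs summed per library, 2 PE-high against 2 PE-low libraries, with edgeR's quasi-likelihood test and Benjamini-Hochberg adjustment over all genes of a class at a threshold of 0.1. In none of the classes did a Slit or Robo gene pass. Across all genes the calls amounted to 0.00692% of 14460 genes in excitatory neurons, where the 1 called gene was E130114P18Rik (named after its values were seen, log2 change 1.33 ± 0.17, adjusted p = 0.067), and to 0% in striatal projection neurons, inhibitory neurons, astrocytes and vascular nuclei. At an unadjusted p under 0.05 there were 726, 582, 504, 411 and 90 genes in these classes, and DESeq2 called 3 genes in excitatory neurons and 0 in the others. Levels in this comparison are CPM after TMM scaling, and a log2 change is given ± SE.

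In excitatory neurons Robo1 had the smallest p of all members. Its scaled level was 480 and 556 CPM in the PE-low libraries and 742 and 717 CPM in the PE-high libraries, a log2 change of 0.49 ± 0.11 (edgeR, adjusted p = 0.428). Both PE-high libraries lay above both PE-low libraries in all 5 excitatory classes taken apart. These classes are parts of the same 4 libraries, so they do not repeat the comparison. The share of all genes with this pattern in 5 classes is not given. In CPM of all UMIs, upper layer neurons had 575 and 764 against 832 and 923, Rorb middle layer neurons 131 and 202 against 313 and 296, and layer 5 neurons 805 and 793 against 1098 and 1046. Layer 6 neurons had 358 and 378 against 508 and 507, and the other excitatory neurons 491 and 487 against 594 and 536.
Groups that do not overlap are common with 2 libraries a side, and 33.2% of all genes tested in the summed excitatory neurons had them. Background droplets held 151 and 227 CPM of Robo1 in PE-low and 177 and 214 CPM in PE-high. The estimated share of free RNA in a class also differed between libraries. In Rorb middle layer neurons it was 18.55 and 13.12% in PE-low and 25.5 and 20.66% in PE-high. The part of free RNA in the Robo1 difference was not tested. The adjusted p of Robo1 by edgeR was 0.00392 without the filter on low counts, where 113 of 23715 genes were called. It was 0.471 with DESeq2. It was 0.613 and 1 without a PE-high replicate, and 0.471 with DESeq2.
Robo1 did not differ in this way in every class. Over the 23 classes both PE-high libraries were above both PE-low libraries in 8, below in 3 (Sst or Pvalb interneurons among them) and overlapping in 12. Such a count was not particular to Robo1, since Slit3 had 9 above, 3 below and 11 overlapping. The other members had 1 to 5 above and 0 to 4 below. The share of all genes with such counts over the 23 classes is not given. Other values moved with the groups too. The excitatory nuclei numbered 2781 and 1639 in PE-low and 2964 and 3019 in PE-high. Of these, Rorb middle layer nuclei, the excitatory class lowest in Robo1, were 453 and 287 against 292 and 389. Layer 5 nuclei, the excitatory class highest in Robo1, were 463 and 263 against 616 and 583. The summed level of 6 oligodendrocyte markers in excitatory neurons was 570 and 511 CPM in PE-low against 371 and 367 CPM in PE-high, that of 8 astrocyte markers 773 and 683 against 636 and 582 CPM, and the median UMIs per nucleus over all classes were 1651.5 and 2172 against 1240 and 1340. Their part in the Robo1 values was not tested.

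**Figure D4:**
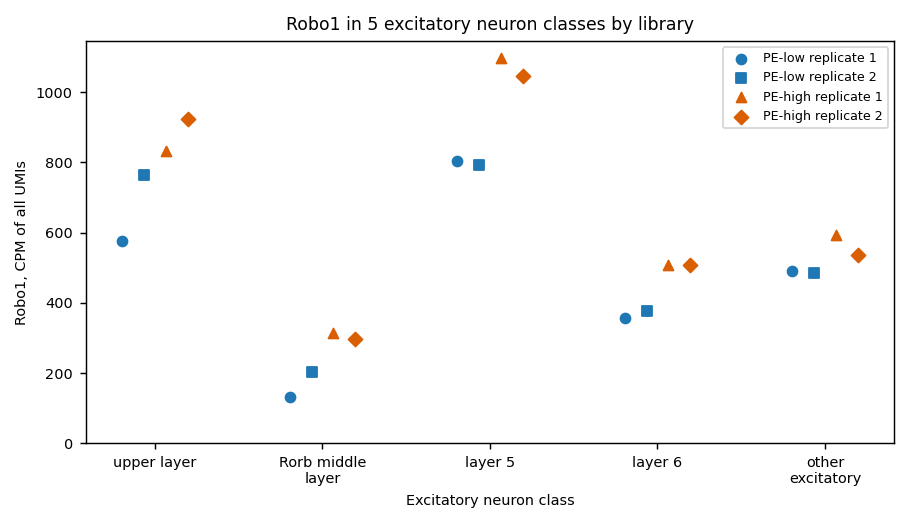
Robo1 in CPM of all UMIs in 5 excitatory neuron classes, with 1 point per library and blue for PE-low, orange for PE-high. The 5 classes are parts of the same 4 libraries. In each class both PE-high libraries lie above both PE-low libraries, from 313 and 296 against 131 and 202 CPM in Rorb middle layer neurons to 594 and 536 against 491 and 487 CPM in the other excitatory neurons.

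The other members in excitatory neurons had small estimates. Slit1 (0.14 ± 0.14), Slit2 (0.12 ± 0.10), Slit3 (0.09 ± 0.13) and Robo2 (0.14 ± 0.10) had positive log2 values and Robo3 a negative one (-0.20 ± 0.12), each with an adjusted p of 0.999. Slit3 was 0.24 without PE-low replicate 2 and turned negative without PE-low replicate 1 (-0.06) or PE-high replicate 2 (-0.03), and Slit1 turned negative without PE-low replicate 1 (-0.05). Of the 6 members tested, 4 had groups that did not overlap, against 33.2% of all genes. The median log2 change of all 6 members was 0.13, against -0.00092 for all genes.

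Striatal projection neurons gave no member an unadjusted p under 0.05. Slit3 had 1094 and 1288 CPM in PE-low and 959 and 1079 CPM in PE-high (-0.22 ± 0.15) and Robo2 had 908 and 1172 against 820 and 934 CPM (-0.25 ± 0.16). Robo1 had 1844 and 1872 against 2034 and 1996 CPM (0.12 ± 0.15). The adjusted p was 0.998 for all 6 members tested, and the groups of Slit3 and Robo1 did not overlap (2 of 6, against 32.6% of all genes). Robo2 was -0.42 when PE-low replicate 1 was left out and near 0 without PE-low replicate 2 (-0.05). Slit2 (-0.10 ± 0.15) was 0.03 without PE-high replicate 1, Robo3 (0.23 ± 0.28) was -0.07 without PE-high replicate 2, and Slit1 (0.05 ± 0.25) was -0.19 without PE-low replicate 1 and -0.05 without PE-high replicate 1.

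In inhibitory neurons Slit1 had the smallest p among the members. Its level was 56.9 and 78.1 CPM in PE-low and 40.4 and 52.2 CPM in PE-high (-0.55 ± 0.20, edgeR, adjusted p = 1). The share of subcortical inhibitory nuclei, the inhibitory class highest in Slit1, differed between libraries, with 1085 of these nuclei in PE-low replicate 2 and 333 to 586 in the others. Slit1 also differed within these nuclei, with means of 106.6 CPM of all UMIs in PE-low and 70.9 CPM in PE-high. Both PE-high libraries lay below both PE-low libraries there, whereas the groups overlapped in Sst or Pvalb, Vip or Lamp5 and other inhibitory neurons. Leaving out the subcortical nuclei removes both their share and this difference, and the log2 change of Slit1 was then -0.07 ± 0.26. With these nuclei kept, the log2 change of Slit1 was -0.74 without PE-low replicate 1 and -0.29 without PE-low replicate 2. Robo1 (1632 and 1584 against 1686 and 1641 CPM) had 0.05 ± 0.11 and Robo2 0.16 ± 0.13, which became -0.05 and -0.09 without the subcortical nuclei. Slit2 had 223 and 261 against 220 and 209 CPM (-0.18 ± 0.13), Slit3 had 0.09 ± 0.13, and Robo3 had 0.01 ± 0.46 from 5 to 21 UMIs a library. In all, 3 of 6 members had groups that did not overlap, against 32.1% of all genes.

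In astrocytes 4 members had enough UMIs for a test. Slit2 had 65.3 and 126 CPM in PE-low and 86.4 and 73.7 CPM in PE-high (-0.25 ± 0.28). Slit3 had 14.5 and 14.4 against 28.2 and 17.9 CPM (0.68 ± 0.47) from 8 to 15 UMIs a library, Robo1 had 0.24 ± 0.22 and Robo2 0.09 ± 0.23. All had an adjusted p of 0.994. Without PE-low replicate 2 the change of Slit2 was 0.30 and that of Robo2 -0.14. Only the groups of Slit3 did not overlap (1 of 4, against 32.6% of all genes).

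In vascular nuclei, Slit3 had 40.5 and 28.3 CPM in PE-low and 99.4 and 109 CPM in PE-high (1.55 ± 0.41, edgeR, adjusted p = 0.998). Slit2 had 70.8 and 56.7 against 109 and 181 CPM (1.16 ± 0.39, edgeR, adjusted p = 0.998). Both rested on 6 to 21 UMIs a library. Fibroblasts carried most Slit2 of this broad class, 18, 3, 10 and 18 of its 21, 12, 12 and 20 UMIs, and the nuclei of fibroblasts numbered 39, 12, 18 and 25. Without PE-low replicate 1, whose vessels stood apart, the log2 changes were 1.84 for Slit3 and 1.33 for Slit2, and neither passed.
Robo4 had 77.5 and 123 CPM in PE-low and 81.3 and 118 CPM in PE-high. Its log2 change was 0.01 ± 0.40, and it was -0.31 without PE-low replicate 1, -0.29 without PE-high replicate 2 and -0.14 in endothelial nuclei alone. Robo1 (0.24 ± 0.29) and Robo2 (0.66 ± 0.34) did not pass either. Of the 5 members tested, 4 had groups that did not overlap, against 30% of all genes. With simulated log2 changes of 1 in 200 genes drawn at random, edgeR recovered 0% of the changed genes in vascular nuclei. It recovered 77% in excitatory neurons, 75.8% in striatal projection neurons, 65.6% in inhibitory neurons and 41.8% in astrocytes. False genes made up 100% of the calls in vascular nuclei, 14.9% in inhibitory neurons, 8.86% in striatal projection neurons, 7.23% in astrocytes and 3.82% in excitatory neurons. A change of that size was thus not detected in the simulated vascular libraries. The shares hold for random genes and do not give the chance of detecting a change in a given member.

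**Figure D5:**
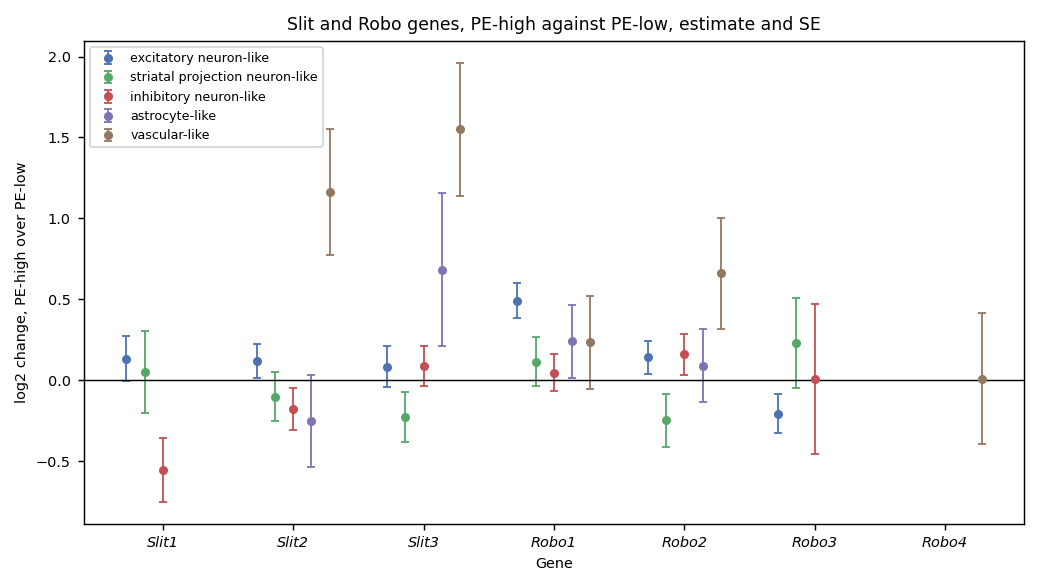
Log2 change of PE-high over PE-low for each member tested, with points at the edgeR estimate, bars of 1 SE and a colour per broad class. The estimates range from -0.55 (Slit1, inhibitory neurons) to 1.55 (Slit3, vascular nuclei), and none passed the adjusted threshold of 0.1.

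Differences of a member's change between broad classes were tested as interaction terms. Of 70 such tests none passed, 7 genes over 10 pairs of classes, and the smallest adjusted p was 0.337, for Slit3 in vascular nuclei against striatal projection neurons.

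A list of 32 partner genes of the pathway (receptor tails' adaptors, GTPase regulators, heparan sulfate carriers and the related netrin and semaphorin receptors) also gave no call. Of these, 30, 29, 30, 26 and 24 could be tested in excitatory, striatal projection, inhibitory, astrocyte and vascular nuclei, and 0 rose and 0 fell by edgeR, with 1, 2, 3, 1 and 0 at an unadjusted p under 0.05. Their median log2 changes were 0.0045, -0.053, -0.068, -0.012 and -0.097, against medians of all genes between -0.0055 and 0.0012.
The smallest p-values in each class belonged to the following genes. In excitatory neurons they were Ndfip2, which lowers Robo1 at the cell surface (-0.26 ± 0.12), and Myo9b, a myosin that binds Robo1 (-0.28 ± 0.13). In striatal projection neurons they were Ntn1, the guidance cue netrin-1 (0.44 ± 0.20), and again Myo9b (-0.33 ± 0.15), and in inhibitory neurons the netrin receptor Unc5b (-1.08 ± 0.39) and the heparan sulfate carrier Sdc3 (-0.57 ± 0.22). Astrocytes had Srgap1, which acts behind Robo receptors on Cdc42 (-0.56 ± 0.27), and Myo9b (-0.64 ± 0.42). Vascular nuclei had the Slit-binding dystroglycan Dag1 (-0.95 ± 0.46) and Srgap3 (-0.62 ± 0.34). The adjusted p was 0.969 or higher for all of them.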

How the data were processed

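The authors deposited raw UMI counts per gene and droplet from single-nucleus RNA-seq of 4 libraries, with empty droplets included. Per the labels and the study's methods, they were made with Cell Ranger 7.1.0 on mm10. Whether intron reads were counted is not given in the sources used here, so a long gene can gain counts from its introns. Levels per kb used the gene span.

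Nuclei were called from the counts by a knee (quantile 0.99 divided by 10) and a test against background droplets (at least 500 UMIs, FDR 0.01), and those with fewer than 200 or more than 2500 genes, or over 15% of UMIs from mitochondrial genes, were dropped. The study's limit of 3% was an alternative, since it left no endothelial class. Median depth per library was 1240 to 2172 UMIs. Doublets were not removed. Nuclei were clustered with scanpy 1.11.5 (variable genes without the 7 members, 30 components, 20 neighbours, Leiden resolution 0.8) and named from fixed markers, with naming thresholds set after the clusters were seen. Shares were thinned to 500 UMIs. Intervals and floors (3 UMIs) cover counting error only.

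UMIs summed per library and broad class were tested with edgeR 4.0.16 (quasi-likelihood test, TMM, filterByExpr, adjusted p under 0.1), 2 PE-high against 2 PE-low libraries. SE is the log2 change divided by the square root of F. DESeq2 1.42.0 and other filters, scalings and libraries left out were alternatives, and 3 restrictions of classes were added after seeing the data. The tests were tested on simulated data with 200 changed genes.

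The members, markers and pathway list were chosen with earlier results of these data known. Named genes were the 7 members, for the pathway list the 2 smallest p-values of a class, and the 3 genes most like each member with at least 100 UMIs by Pearson correlation of log2 CPM over 23 classes. RefSeq promoter windows were found for 6 of the 7 members. Without strand-aware counting being stated, reads of Slit2 and Slit3 cannot be told apart from those of overlapping antisense or intronic genes.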

Additional observations from a re-analysis of the deposited data

How the results depend on the processing

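Counts of called genes depended on the setting. In excitatory neurons (1 gene called) there were 3 with DESeq2, 0 without scaling beyond library size, 113 without the filter on low counts, 2 when thinned to 500 UMIs, 2 at 3% mitochondrial UMIs, 0 without an upper limit on genes and 0 at an adjusted p of 0.05. In striatal projection neurons (0 called) 81 genes were called without the filter, and in inhibitory neurons (0 called) 52 without the filter and 1 when thinned. Leaving out 1 library gave 5 to 658 calls in excitatory neurons, 1 to 765 in striatal projection neurons, 1 to 504 in inhibitory neurons, 0 to 193 in astrocytes and 0 to 424 in vascular nuclei, where the lone library of a group is assumed to vary like the others. The most calls came without PE-low replicate 1 in striatal projection neurons, inhibitory neurons and astrocytes and without PE-low replicate 2 in the others.

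With a replicate block the counts were 204, 230, 119 and 20 in excitatory, striatal projection, inhibitory and astrocyte nuclei, and 0 in vascular nuclei. The libraries share only a number, and the correlation of same-numbered deviations was 0.017 to 0.16. Under this block Robo1 in excitatory neurons (0.497, adjusted p = 0.00238) and Slit1 in inhibitory neurons (-0.545, adjusted p = 0.0997) passed, and Robo4 in vascular nuclei was -0.0019.

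Directions of some members turned between settings, and no member's change had passed in the main setting. In excitatory neurons Slit2 was -0.035 without an upper limit on genes, and over libraries left out Slit3 ran from -0.057 to 0.24 and Slit1 from -0.048 to 0.33. In striatal projection neurons Slit2 was 0.087 at 3% mitochondrial UMIs and 0.14 without eccentric striatal nuclei, and Slit1 was -0.13 at 3%. There, leaving out 1 library gave -0.245 to 0.035 for Slit2, -0.074 to 0.495 for Robo3 and -0.19 to 0.26 for Slit1. In inhibitory neurons Robo3 was -0.017 without scaling, -0.014 without the filter, -0.19 without an upper limit on genes and -0.47 to 0.32 without 1 library. Without subcortical inhibitory nuclei Robo1 was -0.051 and Robo2 -0.087. In astrocytes, leaving out 1 library gave -0.64 to 0.30 for Slit2 and -0.14 to 0.36 for Robo2. In vascular nuclei Robo4 was -0.0038 with DESeq2, -0.022 without scaling, -0.047 without the filter, -0.14 in endothelial nuclei alone and -0.31 to 0.36 without 1 library. After free RNA was subtracted Slit3 was 2.57 and Robo2 1.04 there, with no adjusted p. Of 322 changes under alternatives, 285 were counted as unchanged. Of these, 23 came after subtraction of free RNA and lay within the SE of the main estimate. The rest kept their direction and their side of the threshold.

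The highest levels also moved. After subtraction of free RNA they were 324 CPM for Slit1 and 4232 CPM for Robo2 in neuroblasts, 1509 CPM for Slit3 in indirect pathway neurons, 4151 CPM for Robo1 in eccentric striatal neurons, 79.8 CPM for Robo3 in upper layer neurons and 187 CPM for Robo4 in endothelium. At 3% mitochondrial UMIs Slit3 was 1365 CPM, Robo1 3499 CPM and Robo3 80.5 CPM. A marker gate per nucleus gave 65.2 CPM for Slit1 and 821.5 CPM for Robo2 in neuroblasts, and resolution 0.4 gave 72.6 and 1074 CPM there and 3757 CPM for Robo1. Thinning gave 73.5 CPM for Robo4. The highest class was upper layer neurons for Robo3 in every setting. It changed for Slit1 (subcortical inhibitory neurons at 3%, cholinergic neurons at resolution 0.4), for Slit2 (Sst or Pvalb interneurons with the gate and at 3%), for Slit3 (direct pathway neurons when thinned), for Robo1 (Vip or Lamp5 interneurons with the gate) and for Robo2 (direct pathway neurons with the gate, Vip or Lamp5 interneurons at 3%, cholinergic neurons at resolution 0.4). Neuroblasts and fibroblasts at 3%, and eccentric striatal neurons and fibroblasts with the gate, were not among the listed classes. For Robo4 no endothelial class existed at 3%, where the vascular test could not be run. Slit2 and Slit3 in vascular nuclei could not be tested when thinned. By Spearman correlation 5 of the 6 lists of similar genes changed.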

Other observations

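Some classes had under 10 nuclei in a library and were left out of the order of levels, and their pooled values are given here with exact Poisson 95% intervals. Ependymal nuclei, the ciliated lining of the ventricles, held 40 UMIs of Slit2 in 55 nuclei, 437 CPM (312 to 595). Choroid plexus nuclei, the secretory epithelium of the ventricles, held 16 UMIs of Slit2 in 24 nuclei, 392 CPM (224 to 637). These levels overlapped those of Sst or Pvalb interneurons, which had 299 to 352 CPM over libraries. Subcortical glutamatergic neurons marked by Slc17a6 held 2906 CPM of Robo1 (2759 to 3059), with 115 of their 164 nuclei from PE-low replicate 2. Their level was above that of the cortical excitatory classes, which had at most 1098 CPM in any library.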
